A study of Mus musculus with 2 samples.

Results

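The 6 miRNA genes Mir182, Mir183, Mir96, Mir204, Mir211 and Mir184, known from the eye and other sensory organs, were followed in the mouse embryonic forebrain, among 1973 counted gene identifiers. Membership is by gene name and uses no measured value, but the set was drawn up with earlier results of these data known. Mir182, Mir183 and Mir96 form the sensory cluster, and Mir204, Mir211 and Mir184 are miRNAs of the lens and the pigmented epithelium. All 6 genes were found in the deposited counts, and all 6 had a mean count of 10 or more, the minimum used for testing.

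Small RNA shorter than 30 nt was sequenced from forebrain of healthy B6NCrl mouse embryos, male and female pooled, at 10.5 days of development. The samples form 1 group of 2 libraries with no treatment and no second genotype, so no condition could be compared. Replicate 1 came from 69 embryos and replicate 2 from 51 embryos, and the labels call them biological replicates, so p-values below measure the gap between these pools only. Each library is a pool, so embryo-to-embryo spread cannot be seen. Sense-strand gene counts came to 3256070 in replicate 1 and 3574530 in replicate 2, and levels are CPM, counts scaled to a total of 1000000. A read with several possible places in the genome was left uncounted, and such reads were 30.1% of replicate 1 and 28.8% of replicate 2. In bulk tissue, fewer cells of a type and less RNA per cell cannot be told apart. The labels name forebrain only and mention no eye, ear or skin. The counts cover miRNA genes, so the tissue could be checked only by miRNAs. The Hox-cluster miRNAs of hindbrain and trunk summed to 237 CPM in replicate 1 and 297 CPM in replicate 2. This sum is a lower limit, because reads with several possible places were left uncounted. Mir9-3, a brain miRNA, reached 363 CPM in replicate 1 and 315 CPM in replicate 2. It is counted as a lower limit because its mature sequence is also made elsewhere. Also limited in this way, Mir9-2 had 5.84 CPM in replicate 1 and 5.32 CPM in replicate 2. Mir124a-1, Mir124a-2 and Mir124a-3, miRNAs of neurons, had at most 5.04 CPM. These values are lower limits too, so they do not show that the miRNA of neurons was scarce. The lists of surface epithelium and head mesenchyme, given below, summed to 10600.2 and 7845 CPM in replicate 1 and to 9285 and 7569 CPM in replicate 2.

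A miRNA is cut from a hairpin in a longer transcript, and its seed, bases 2 to 8, pairs with target mRNAs. The miR-183 cluster is transcribed as a unit in photoreceptors, hair cells of the inner ear and other sensory cells, and mutations in the seed of miR-96 cause hearing loss in mice and humans. miR-204 and miR-211 sit in introns of the paired channel genes Trpm3 and Trpm1. miR-204 is known from pigmented epithelium, lens and choroid plexus, and miR-211 from pigment cells, where its host Trpm1 is driven by the transcription factor Mitf. miR-184 is a miRNA of the corneal and lens epithelium, and a seed mutation in the human gene causes cornea and lens disease.

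The mature strands are shown because the 6 genes differ in how much sequence they share, which bears on how reads can be assigned. The RefSeq table (GRCm38.p6) held both arms of all 6 hairpins. Each line gives the strand regarded as the main product, with the seed in capitals, 5′ to 3′.
mmu-miR-183-5p: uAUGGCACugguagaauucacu
mmu-miR-96-5p: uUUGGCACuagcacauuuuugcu
mmu-miR-182-5p: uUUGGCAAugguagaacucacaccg
mmu-miR-204-5p: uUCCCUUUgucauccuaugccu
mmu-miR-211-5p: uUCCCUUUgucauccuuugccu
mmu-miR-184-3p: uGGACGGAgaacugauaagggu
The cluster members have 3 closely related seeds. Counting from the 5′ end, the seed of miR-182-5p differs from that of miR-96-5p by C8A and the seed of miR-183-5p differs from it by U2A. miR-182-5p and miR-183-5p, which differ at both of these seed positions, share 18 of 22 aligned bases, while miR-96-5p shares 12 of 23 with miR-182-5p and 13 of 22 with miR-183-5p. miR-204-5p and miR-211-5p have the same seed and 21 of 22 bases in common, and the only difference is A17U. They share their first 16 bases, so among reads of this arm only those that reach base 17 tell them apart. How many shorter reads fell among those given to no gene was not tested. None of the 12 mature strands of the 6 genes occurs whole in a hairpin of another gene in the table.

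Other mouse genes with these seeds added little. Mir7670, which shares the seed of miR-204-5p and miR-211-5p, had 0 counts in each library, and so had Gm24195, the gene of miR-1271-5p, whose seed is that of miR-96-5p. At 0 counts the true number may still be up to 3, equal to 0.921 CPM at the depth of replicate 1 and 0.839 CPM at that of replicate 2. For the other arms, Mir7684 shares the seed of miR-204-3p and had 0 counts in each library, and Mir3475 shares the seed of miR-96-3p and had 33 counts in replicate 1 and 36 in replicate 2.

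The hairpins of Mir204 and Mir211 are shown whole, with both mature arms in capitals, because the deposited count is 1 number per hairpin gene and can hold reads of either arm.
Mir204: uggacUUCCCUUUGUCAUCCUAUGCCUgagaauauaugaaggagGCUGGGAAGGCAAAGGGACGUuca
Mir211: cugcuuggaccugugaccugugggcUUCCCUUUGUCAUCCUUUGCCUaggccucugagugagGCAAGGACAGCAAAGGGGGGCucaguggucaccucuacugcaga
Mir204 (ENSMUSG00000065507) lies on the plus strand of mm10 at chr19:22750605-22750672, in an intron of Trpm3 and on the strand of that gene. The files use version 2 of this identifier and the annotation used here version 3, so the counted interval may differ slightly. Mir211 (ENSMUSG00000065585) lies on the plus strand at chr7:64205806-64205911, in an intron of Trpm1 and on its strand. The sensory cluster runs along the minus strand of chromosome 6 in the order Mir183 (ENSMUSG00000065619, chr6:30169668-30169737), Mir96 (ENSMUSG00000065586, chr6:30169446-30169551) and Mir182 (ENSMUSG00000076361, chr6:30165918-30165992). Mir183 and Mir96 are 116 bases apart, Mir96 and Mir182 are 3453 bases apart, and no other annotated gene overlaps them. Mir184 (ENSMUSG00000065596) is intergenic on the minus strand, at chr9:89802260-89802328.

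The sensory cluster supplied most of the reads of the 6 genes. In replicate 1 the cluster held 25676 of their 27281 counts, and in replicate 2 it held 26399 of 29840. Together the 6 genes took 0.838% of all gene counts in replicate 1 (95% exact interval 0.828 to 0.848) and 0.835% in replicate 2 (0.825 to 0.844), so their summed share was alike in the 2 pools. Their make-up was not. The cluster took 0.789% (0.779 to 0.798) in replicate 1 and 0.739% (0.730 to 0.747) in replicate 2, whereas the lens and pigmented epithelium genes took 0.0493% (0.0469 to 0.0518) in replicate 1 and 0.0963% (0.0931 to 0.0995) in replicate 2. Such intervals reflect counting error alone, because PCR copies of a molecule are counted as separate reads.

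Mir182 was the most abundant of the 6, with 4285 CPM in replicate 1 and 4167 CPM in replicate 2, placed 49th by mean level among all counted genes. Mir183 had 2634 CPM in replicate 1 and 2198 CPM in replicate 2 and was placed 71st. Mir96 had 966 CPM in replicate 1 and 1020 CPM in replicate 2 and was placed 107th. The values of the 3 genes did not overlap with each other, and their order was the same in both pools.

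Mir204 had 318 CPM in replicate 1 and 452 CPM in replicate 2, placed 153rd. Mir211 had 174 CPM in replicate 1 and 502 CPM in replicate 2, placed 160th. Their ranges overlap, and they stood in opposite order in the 2 libraries, with Mir204 ahead in replicate 1 and Mir211 ahead in replicate 2. Mir184 was close to the limit of detection, with 3 counts in replicate 1 (0.921 CPM, 95% exact interval 0.190 to 2.69) and 32 counts in replicate 2 (8.95 CPM, 6.12 to 12.6). Its 3 counts equal the number that a count of 0 allows.

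**Figure D1:**
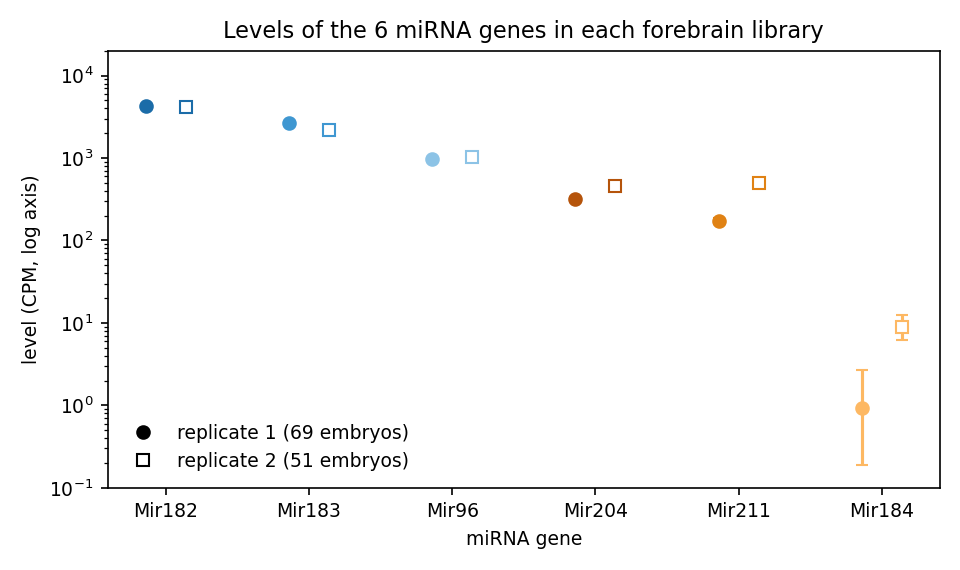
Level of each miRNA gene (CPM, log axis) in replicate 1 (filled circles) and replicate 2 (open squares), with 95% exact counting intervals, which for the 5 abundant genes are mostly smaller than the symbols. The sensory cluster genes keep nearly the same height in both libraries, while Mir211 lies at 174 CPM in replicate 1 and 502 CPM in replicate 2 and Mir184 at 0.921 CPM in replicate 1 and 8.95 CPM in replicate 2.

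Mean levels were 4226 ± 83 CPM for Mir182, 2416 ± 308 CPM for Mir183, 993 ± 38 CPM for Mir96, 385 ± 95 CPM for Mir204, 338 ± 231 CPM for Mir211 and 4.94 ± 5.68 CPM for Mir184 (SD, n = 2). Mir182 exceeded Mir183 by 1.75-fold, Mir183 exceeded Mir96 by 2.43-fold and Mir96 exceeded Mir204 by 2.58-fold in mean CPM, each step larger than the gap between the libraries. Mir204 exceeded Mir211 by 1.14-fold in mean CPM, within the spread. Mir211 exceeded Mir184 by 189-fold in replicate 1, where Mir184 had 3 counts, and by 56.0-fold in replicate 2. Each read is 1 short mature strand, so CPM was not divided by length in these values. Per 100 bases of hairpin the mean levels came to 5635 CPM for Mir182, 3452 for Mir183, 937 for Mir96, 566 for Mir204, 319 for Mir211 and 7.15 for Mir184, in the same order.

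The 3 genes of the sensory cluster kept similar proportions in both pools, but not equal ones. Mir182 made up 54.3% of the cluster's counts in replicate 1 (95% exact interval 53.7 to 55.0) and 56.4% in replicate 2 (55.8 to 57.0). Mir183 made up 33.4% in replicate 1 (32.8 to 34.0) and 29.8% in replicate 2 (29.2 to 30.3), and Mir96 made up 12.2% in replicate 1 (11.9 to 12.7) and 13.8% in replicate 2 (13.4 to 14.2). None of these intervals overlap between the libraries. For each Mir182 read there were 0.615 Mir183 reads in replicate 1 and 0.528 in replicate 2. These ratios are within a library, so no scaling between the libraries enters them.

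The balance of the same-seed pair differed more. Mir211 supplied 35.5% of the reads counted for Mir204 and Mir211 together in replicate 1 (95% exact interval 33.1 to 37.9) and 52.6% in replicate 2 (50.9 to 54.3). There were thus 1.82 Mir204 reads per Mir211 read in replicate 1 and 0.901 in replicate 2. The number of Mir182 reads per Mir204 read was 13.5 in replicate 1 and 9.22 in replicate 2.

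**Figure D2:**
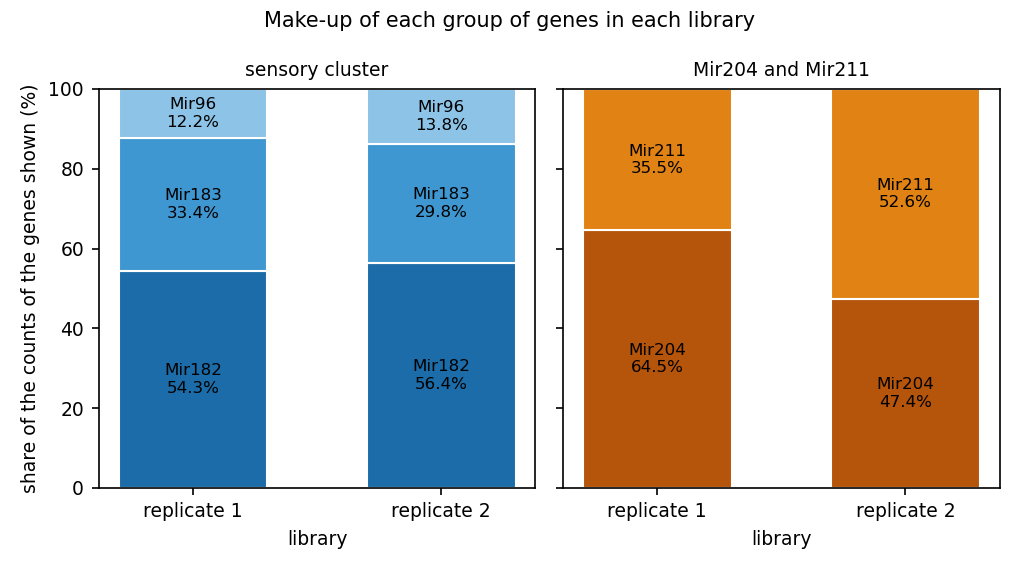
Share of counts (%, from 0) of each gene within the sensory cluster (left) and within the Mir204 and Mir211 pair (right), with replicate 1 and replicate 2 as bars. Mir182, Mir183 and Mir96 take similar parts of the cluster in both bars, and Mir211 takes 35.5% of the pair in replicate 1 and 52.6% in replicate 2.

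The difference between the pools was then tested for each gene. Values are log2 ratios of replicate 1 over replicate 2 after TMM scaling, with a pseudocount of 0.5 counts. An exact binomial test, two-sided, compared each split with the scaled library sizes, and p-values were adjusted by Benjamini-Hochberg over the 401 genes tested, with 0.05 as the threshold. It compares these 2 libraries and not conditions, and it covers counting error only. Of the 6 genes 5 passed it, 1 higher and 4 lower in replicate 1. Over all 401 genes 43.4% passed, 19.7% as higher and 23.7% as lower in replicate 1, so passing this test is common in these libraries. It is more common at higher counts. With the minimum raised to a mean count of 100, 163 of 271 genes passed, and 4 of the 5 members left. The median log2 ratio was −0.32 over the 6 genes and −0.03 over all 401 genes. The 6 genes did not shift as a set, with medians of 0.01 for the sensory cluster and −1.55 for the lens and pigmented epithelium genes.

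In the sensory cluster Mir183 rose in replicate 1 and Mir96 fell, each by a small amount. The log2 ratio of Mir183 was 0.23 (95% counting interval 0.19 to 0.27, adjusted p = 1.3e-23, exact binomial test). That of Mir96 was −0.11 (−0.18 to −0.04, adjusted p = 0.0054, exact binomial test). Under scaling by total counts or by DESeq2 size factors Mir96 no longer passed (adjusted p = 0.058 with total counts and 0.057 with DESeq2 size factors, exact binomial test). Mir182 had a log2 ratio of 0.01 (−0.02 to 0.04, adjusted p = 0.75, exact binomial test) and passed as higher, at 0.04, with either of those scalings (adjusted p = 0.041 with total counts and 0.043 with DESeq2 size factors, exact binomial test). At a mean count of at least 100 there were 271 genes, with a median size of the log2 ratio of 0.14. Of these, 75 had a larger ratio in size than Mir183, 164 a larger one than Mir96 and 256 a larger one than Mir182.

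All 3 genes of the lens and pigmented epithelium fell in replicate 1. Mir204 fell by 0.54 on the log2 scale (95% counting interval of the ratio −0.65 to −0.43, adjusted p = 1.8e-20, exact binomial test). Of the same 271 genes, 11 had a larger ratio in size. Mir211 fell by 1.55 (−1.69 to −1.42, adjusted p = 4.4e-127, exact binomial test), which is 2.94-fold higher in replicate 2, and no other gene among those 271 had a ratio as large in either direction. Mir184 fell by 3.11 (−5.66 to −1.63, adjusted p = 2.6e-06, exact binomial test), a value that rests on 3 counts in replicate 1. The size for Mir184 depends on the pseudocount and was −2.11 with 5 counts.

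The negative binomial exact test of edgeR was run as an alternative, with the common dispersion of these 2 libraries, a biological coefficient of variation of 13.9%. That dispersion comes from the same gap that is then tested, with 1 library on each side, so the test has no replicate spread behind it and its calls are given as a description. It called 0.998% of the 401 genes, or 4 genes, and 0.748% as lower in replicate 1. Among the 4 genes were 2 of the 6 members, Mir211 and Mir184. The others were Mir669f, lower in replicate 1, and Mir449a, a miRNA of ciliated cells that was higher there. Mir204 and the 3 sensory cluster genes were not called. Past 2-fold in either direction were 3.49% of the 401 genes, and Mir211 and Mir184 were the members among them.

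**Figure D3:**
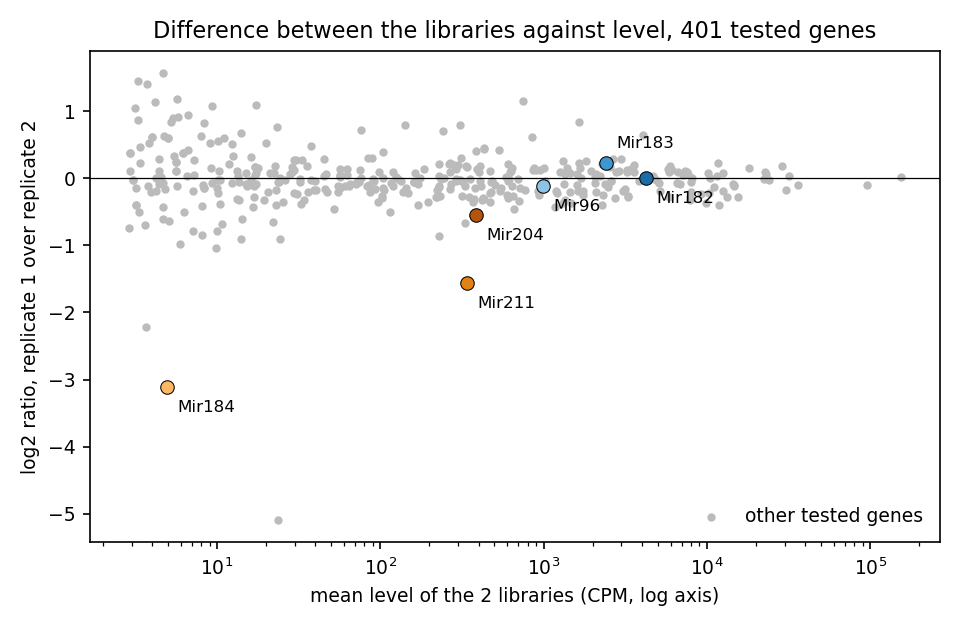
Log2 ratio of replicate 1 over replicate 2 against mean level (CPM, log axis) for the 401 tested genes, with the 6 members in colour. Mir211, at −1.55, has the lowest ratio among genes with a mean count of at least 100, while Mir182, Mir183 and Mir96 lie within the band of genes around 0.

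**Figure D4:**
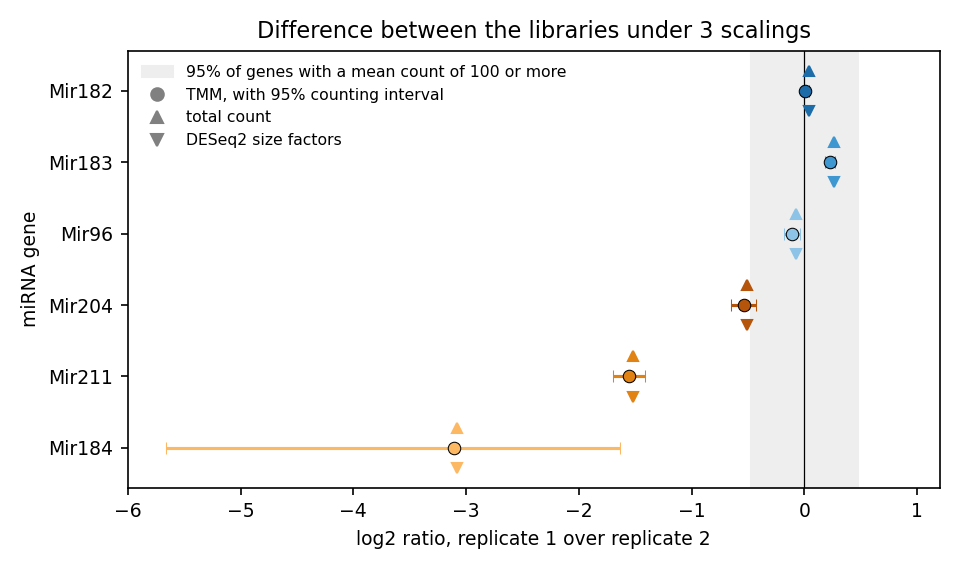
Log2 ratio of replicate 1 over replicate 2 for each gene with TMM scaling (circles, with 95% counting intervals), total-count scaling (upward triangles) and DESeq2 size factors (downward triangles). The grey band is the range of sizes that holds 95% of the genes with at least 100 counts on average, up to 0.48. The values of Mir204, Mir211 and Mir184 lie outside it under all 3 scalings. The interval of Mir204 reaches into the band, to −0.43, and Mir184, with a mean count of 17.5, is not one of the genes that set it. Over all 401 tested genes this range goes up to 0.87.

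By mean level Mir182 lay between Mir872 and Mir135b, Mir183 between Mir323 and Mir101b, and Mir96 between Mir125b-1 and Mir374b. Mir204 lay between Mir200a and Mir598, Mir211 between Mir9-3 and Mir760, and Mir184 between Mir467b and Mir124a-2, a miRNA of neurons and retina with 4.61 CPM in replicate 1 and 5.04 CPM in replicate 2. Likeness in the difference between the pools rests on only 2 libraries and was looked for only above a limit, a mean count of at least 100, so genes with fewer counts may lie closer. By this measure the genes nearest to Mir211 were Gm23935 at −0.86 and Mir6236 at −0.67. Nearest to Mir204 among these genes were Mir10a at −0.50 and Mir196b at −0.46, of the Hox clusters. Mir221, which is not on the Hox list, was nearly level with Mir196b at −0.46. Those nearest to Mir183 were Mir219a-1 at 0.23 and Mir100 at 0.24. Mir412 and Mir330, both at −0.11, were nearest to Mir96, and Mir6944 and Mir450b, both at 0.01, were nearest to Mir182. At the ends of the range among the 271 genes stood Mir211, Gm23935 and Mir6236 on the lower side, and Mir449a at 1.15, Mirlet7i at 0.84 and Mir135a-2 at 0.80 on the upper side.

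Lists of miRNAs from cells that could adjoin the eye or the forebrain were set beside these results. Over the 7 lists outside the members, 12 of 40 tested genes rose in replicate 1 by the exact binomial test and 8 fell, or 30% and 20%, against 19.7% and 23.7% of all 401 genes. Mir449a was the only one of these genes called by the negative binomial test of edgeR. The counts for single lists are small and are read against these shares. The list of the neural retina also holds Mir9-3, named above as a brain miRNA, and Mir124a-2, a miRNA of neurons. Its values therefore cannot single out retina within forebrain. Of its 15 tested genes, 4 rose and 2 fell in replicate 1, close to the share of all genes called, with a median log2 ratio of −0.01. The 17 counted genes of this list summed to 8004 CPM in replicate 1 and 7134 CPM in replicate 2. Highest were Mir181a-1 (2463 CPM in replicate 1 and 2073 CPM in replicate 2) and Mir181b-2 (2041 CPM in replicate 1 and 2098 CPM in replicate 2), and Mir181a-2 had the highest ratio of the tested genes of the list at 0.61. Most of these genes have mature sequences made at several loci and are counted as lower limits. Of 8 miRNA genes of surface epithelium, 6 rose and none fell, with a median of 0.17 and sums of 10600.2 CPM in replicate 1 and 9285 CPM in replicate 2. Mir429 led with 3326 CPM in replicate 1 and 2662 CPM in replicate 2, and Mir205, an epithelial miRNA also known from the lens, had 2596 CPM in replicate 1 and 2604 CPM in replicate 2. Mir205 had a log2 ratio of −0.04.

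Of 4 tested miRNA genes of choroid plexus and ciliated epithelium, 1 rose and 1 fell, and the 5 counted genes summed to 2220 CPM in replicate 1 and 1795 CPM in replicate 2. Mir449a was the gene that rose, with 1040 CPM in replicate 1 and 458 CPM in replicate 2, and Mir34c the gene that fell, with 1126 CPM in replicate 1 and 1281 CPM in replicate 2. Of 5 head mesenchyme genes, 1 rose and 1 fell, with sums of 7845 CPM in replicate 1 and 7569 CPM in replicate 2, led by Mir214 (3840 CPM in replicate 1 and 3861 CPM in replicate 2) and Mir140 (3417 CPM in replicate 1 and 3057 CPM in replicate 2). Of 4 tested Hox-cluster genes, 2 fell and none rose, with a median of −0.31, and Mir10a led with 96.1 CPM in replicate 1 and 132.9 CPM in replicate 2, followed by Mir10b with 88.8 CPM in replicate 1 and 96.5 CPM in replicate 2. Mir10a and Mir196b were the genes that fell. Of the 3 counted red blood cell genes 1 fell, Mir451a, with 601 CPM in replicate 1 and 707 CPM in replicate 2. Mir144 had 59.9 CPM in replicate 1 and 53.2 CPM in replicate 2, and the list summed to 693 CPM in replicate 1 and 792 CPM in replicate 2. Mir126a, an endothelial miRNA, fell by 0.17, with 29029 CPM in replicate 1 and 31930 CPM in replicate 2. No listed gene that was counted had 0 counts in both libraries. The 8 listed genes that were lower in replicate 1 along with Mir204, Mir211 and Mir184 were Mir10a, Mir196b, Mir7-1, Mir451a, Mir34c, Mir199b, Mir126a and Mir181b-2, and the part of other cells in the difference of the members was not tested.

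**Figure D5:**
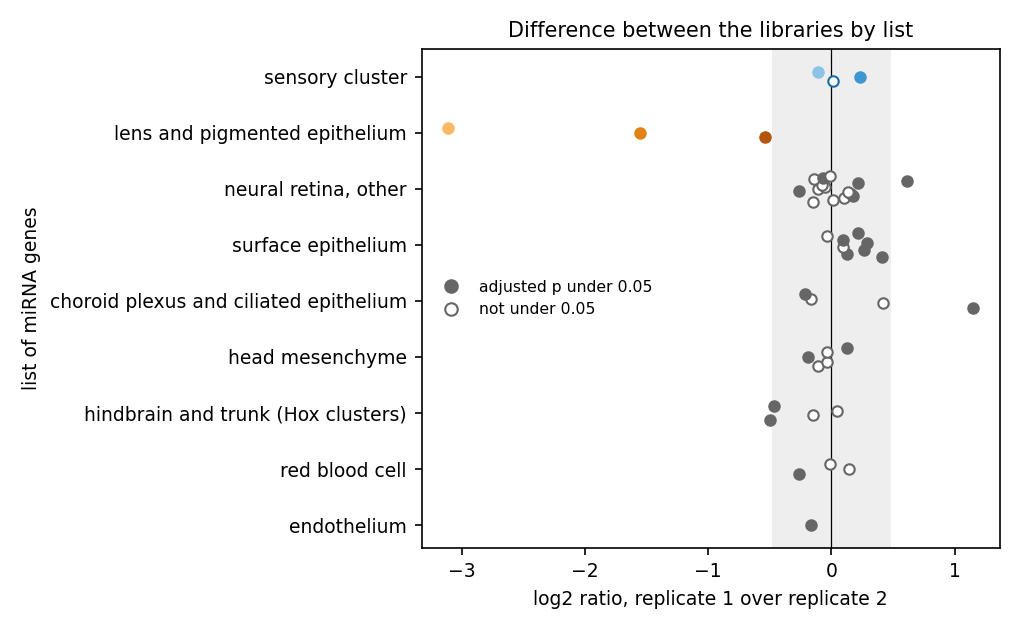
Log2 ratio of replicate 1 over replicate 2 for each tested gene of each list, filled where the adjusted p of the exact binomial test was under 0.05, with the same grey band of 95% of well-counted genes, up to 0.48. The genes of lens and pigmented epithelium lie at −0.54, −1.55 and −3.11, left of the genes of all other lists, whose lowest is Mir10a at −0.50. The 95% counting intervals of Mir204 (−0.65 to −0.43) and Mir10a (−0.71 to −0.29), not drawn here, overlap.

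Reads on the opposite strand were nearly absent at these genes. Mir96, Mir204, Mir211 and Mir184 had 0 such counts in each library. Mir183 had 6 in replicate 1 and 6 in replicate 2. Mir182 had 7 in replicate 1 and 9 in replicate 2, or 0.0501% of its reads on either strand in replicate 1 and 0.0604% in replicate 2. Over all genes the opposite strand held 3.31% of the reads on either strand in replicate 1 and 3.62% in replicate 2.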

How the data were processed

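Reads per miRNA gene were deposited as raw counts, 1 table per library and not normalized. Per the authors' file notes the assembly was mm10 and the genome annotation M4. Which aligner, trimming and counter were used is not given in the sources used here. Sense-strand counts were analysed, 96.5% ± 0.22 of the counts on either strand (SD, n = 2). Tallies outside the genes stayed out of library sizes: 29.4% ± 0.95 of reads had several places, 25.0% ± 0.61 were unmapped and 8.05% ± 1.09 hit no gene on that strand (SD, n = 2).

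GENCODE M21, also mm10, gave symbols and positions for 1894 of 1973 identifiers, and RefSeq, GRCm38.p6, the sequences. TMM factors and the negative binomial exact test came from edgeR 4.0.16, with the dispersion estimated from both libraries as 1 group, and other size factors from DESeq2 1.42.0 (R 4.3.3). The rest ran in Python 3.11.15 with scipy 1.17.1. The binomial test was tested on simulated counts that held counting error only, which cannot show how it behaves with further spread between libraries. Shares carry 95% Clopper-Pearson intervals.

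The members and the 9 lists, of which 50 of 55 symbols were found, were chosen with earlier results of these data known. Other genes named are those next to a member in level, those next to it in ratio and the 3 highest and lowest ratios, both at a mean count of at least 100, those sharing a seed, and the 2 highest of each list. Mir669f, Mir181a-2, Mir7-1, Mir199b, Mir9-2, Mir124a-1, Mir124a-3, Mir221, and Mir196b as a Hox gene were named after their values were seen.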

Additional observations from a re-analysis of the deposited data

Results flagged for a closer look

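A few opposite-strand reads, a measurement outside the main counts, exceeded the 3 counts that a count of 0 allows. Mir182 had 7 in replicate 1 and 9 in replicate 2. Mir183 had 6 in replicate 1 and 6 in replicate 2, or 0.0699% of its reads on either strand in replicate 1 and 0.0763% in replicate 2. With 2 libraries in the group, single libraries could not be checked for standing apart.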

How the results depend on the processing

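With the negative binomial exact test of edgeR in place of the binomial test, 2 in place of 5 members and 4 in place of 174 of the 401 genes were called. The other settings tried called 4 or 5 members, but not always over the same number of genes. The calls were 177 of 401 genes with either other scaling, 166 of 739 without the filter and 182 of 413 on either strand. A mean count of at least 100 left 271 genes, of which 163 were called, and 5 members, of which 4 were called. Total-count scaling and DESeq2 size factors turned the split of the members to 2 higher and 3 lower in replicate 1, and that of all genes from 79 higher and 95 lower to 93 higher and 84 lower. They moved the median log2 ratio of all genes by 0.03. No log2 ratio of a member changed sign under any scaling, strand or pseudocount tried, and 23 of 30 repeats kept their side of the threshold. The repeats with a pseudocount of 5 kept theirs by construction, because the pseudocount does not enter the binomial test. The share of the 6 genes was 0.836% ± 0.0022 (SD, n = 2). It was 0.808% with counts on either strand, 0.989% without Mir335 in the total and 0.469% with reads of several places in the total. Their median level of 701 CPM became 829 without Mir335 and 393 with reads of several places, by construction of the total. Leaving out 1 library gave shares of 0.835 to 0.838% and median levels of 642 to 761 CPM. It moved Mir211 to 502 CPM without replicate 1 and 174 without replicate 2, and Mir184 to 8.95 CPM without replicate 1 and 0.921 CPM without replicate 2. No test between the libraries could be made with 1 library left out. Depth limits Mir184, and multi-locus reads limit all levels.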
